A study of Mus musculus with 16 samples.

Results

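The 43 genes described here encode proteins that detect DNA damage, signal it to the cell cycle and repair it. They were chosen by gene symbol from a list drawn up with earlier results of these data known, by a rule that uses no measured value, and all 43 were found among the 30386 genes of the deposited expression table. The RNA came from neural stem/progenitor cells (NSPCs) of the subventricular zone (SVZ), the main neurogenic niche along the lateral ventricles of the adult mouse brain. The 8 samples of *Dbx2*-NSPCs carried a constitutively expressed transgene for *Dbx2*, a homeobox transcription factor, and the 8 samples of *GFP*-NSPCs carried a *GFP* transgene as the control. Both kinds of line were made from NSPCs of 3-month-old C57BL/6 J/Babr mice by nucleofection with a pTP6 plasmid and puromycin selection, so the controls shared the vector and the drug, and they were kept as bulk cultures, not clones. For RNA they were grown as non-adherent cultures with EGF and FGF2, so the comparison concerned dividing cells in vitro. The study used 2 pairs of lines from independent derivations, but the sample labels give only the transgene and a replicate number from 1 to 8. Which samples share a line is therefore not known here, and p-values measure the spread between these samples.

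Cells mend a broken or damaged DNA molecule by several routes. Homologous recombination copies the lost sequence from the sister chromatid and is used in S and G2 phase, whereas end joining seals broken ends directly. Mismatch repair corrects copying errors, base excision repair replaces single damaged bases, and the Fanconi anaemia pathway deals with crosslinks between the strands. The kinases ATM and ATR pass a damage signal to CHK2 and CHK1, which hold the cell cycle. Many of these genes are transcribed more in dividing than in resting cells.

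Each sample was measured by 3′ mRNA sequencing, which reads the end of each transcript near the poly-A tail, and the values were CPM, the reads of a gene scaled to the total of its sample. The depth was 1803928 to 3258885 reads per sample in *GFP*-NSPCs and 2214008 to 3293285 in *Dbx2*-NSPCs. All 43 genes passed the filter of more than 1 CPM in at least 4 samples that left 12533 genes for testing. The level of *Dbx2* itself, as mean and SD of 8 samples, was 77.2 ± 51.8 CPM in the control group and 155 ± 35.4 CPM under the transgene. This was a log2 fold change of 1.26 (SE 0.317, limma adjusted p = 0.00978). It was 0.54 in replicates 1 to 4, where the call was lost (limma adjusted p = 0.0891), and 1.99 in replicates 5 to 8. The difference between these sets passed the test (limma adjusted p = 1.04e-04). The controls were higher in replicates 1 to 4, at 89.31 to 171.22 CPM, than in replicates 5 to 8, at 30.67 to 39.48 CPM. *Dbx2*-NSPCs were at 135.99 to 232.13 CPM in replicates 1 to 4 and at 114.0 to 155.22 CPM in replicates 5 to 8. The labelled cell type was checked against marker genes. All 8 neural progenitor markers were above the filter, with *Vim* the most abundant, while 0 of 6 microglial markers passed it, with *Aif1* and *Tyrobp* at 0 and a sum of at most 1.96 CPM in any sample. Of 5 endothelial and mural markers *Kdr* passed it, at up to 8.08 CPM, and *Cldn5* and *Cdh5* were at 0.

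In *Dbx2*-NSPCs, 6 of the 43 repair genes were downregulated and 0 were upregulated (limma on log2(CPM + 0.5), Benjamini-Hochberg adjusted p under 0.05 over all tested genes). The 6 were *Rad51ap1*, *Nbn*, *Blm*, *Atr*, *Chek1* and *Ung*. Of all tested genes, 15.8% passed the same test, 7.78% downwards and 8.03% upwards, so the share of repair genes called, 14.0%, was close to the background and all of it lay in one direction. At an unadjusted p under 0.05 there were 10 repair genes, beside 29.2% of all tested genes. The log2 fold changes of the 43 genes ran from -0.64 to 0.37 with a median of -0.19, and 34 of them (79.1%) were negative. Over all tested genes the median was -0.02 and 52.7% were negative. For 0 of the 43 genes did the values of the 2 groups lie fully apart, against 3.41% of all tested genes. At all 8 replicate numbers 3 genes (*Rad51ap1*, *Blm* and *Atr*) were lower, as were 7.47% of all tested genes. The labels do not say whether samples of the same number belong together, so counts by number are a description. Within replicates 1 to 4 and 5 to 8, deviations of same-numbered samples correlated at 0.04, against -0.014 for differently numbered ones. In a fit blocked by replicate number the same 6 genes were called lower, beside 10.9% of all tested genes, and with the division of replicates 1 to 4 and 5 to 8 as a covariate *Xrcc3* was added to them, beside 12.2%. By edgeR on the recovered reads 4 of the 6 were called lower, all but *Nbn* and *Atr*, beside 7.01% of all tested genes. With the division as a covariate edgeR called all 6 lower, beside 1366 of the 12533 tested genes. The count fell to 3 of 43 (6.98%) without any 1 of *GFP*-NSPC replicates 2, 3, 4 and 8 and *Dbx2*-NSPC replicates 5 and 6, where 6.51% to 7.17% of all tested genes were called lower. In bulk samples, fewer cells of a type and less RNA per cell cannot be told apart.

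**Figure D1:**
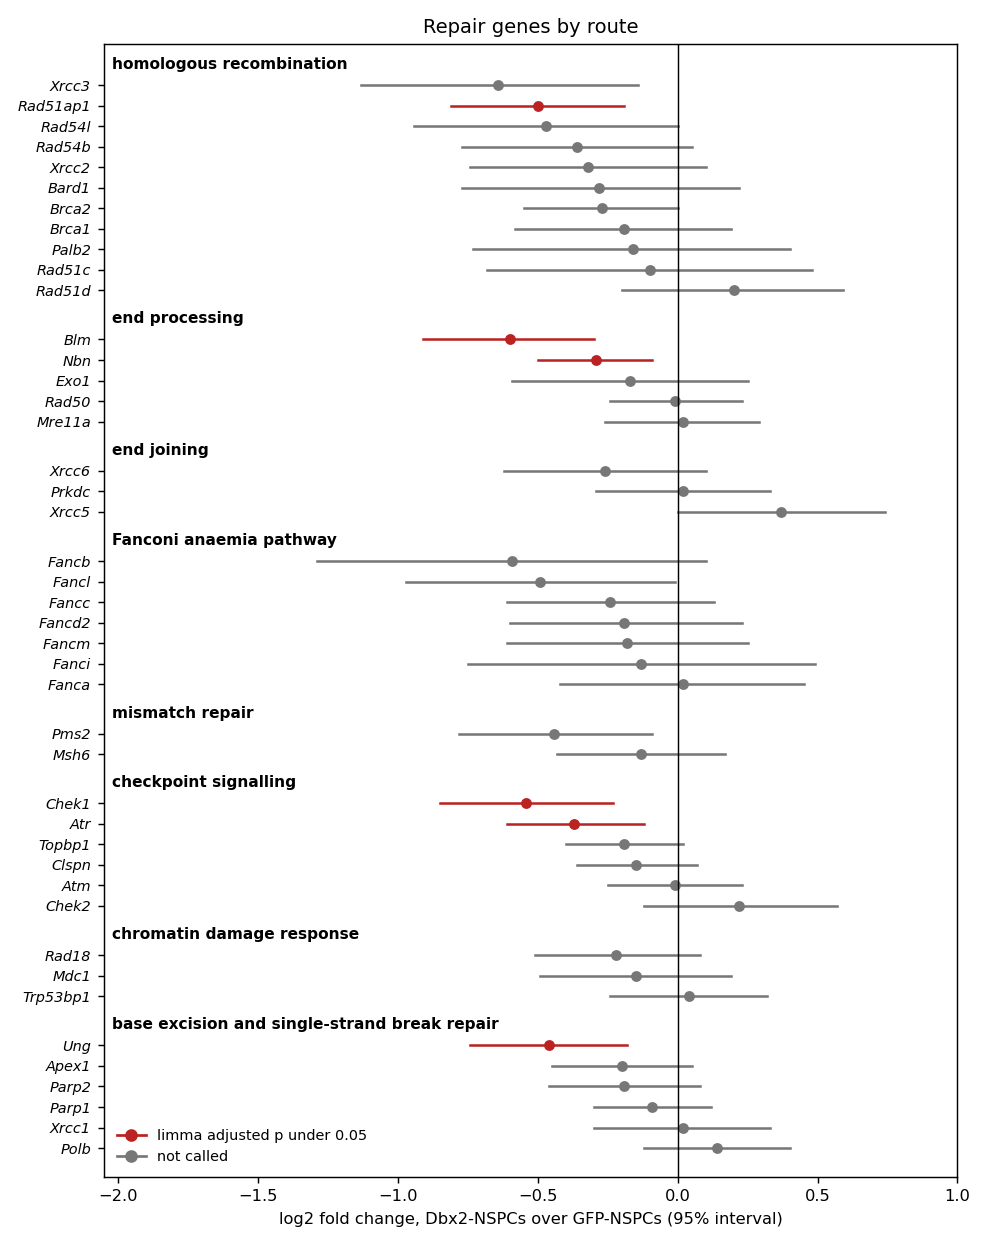
Log2 fold change of each of the 43 repair genes in *Dbx2*-NSPCs over *GFP*-NSPCs (points, x axis) with the 95% interval of the limma fit (lines), n = 8 samples per group, grouped by repair route. The 6 genes called are in red and all lie left of 0, and most of the other points lie left of 0 with intervals that cross it.

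Homologous recombination was represented by 11 genes, of which 10 had a negative fold change and 1, *Rad51ap1*, was called. *Rad51ap1* encodes a DNA-binding protein that promotes the pairing of the broken strand with its template. It ranged from 39.87 to 58.20 CPM in *GFP*-NSPCs (median 44.3) and from 22.88 to 50.80 CPM in *Dbx2*-NSPCs (median 32.3). The groups overlapped through *Dbx2*-NSPC replicates 3 and 8, and the gene was lower in the *Dbx2*-NSPC sample of all 8 replicate numbers. The log2 fold change was -0.50 (SE 0.148, limma adjusted p = 0.0257), and it was -0.49 in replicates 1 to 4 and -0.51 in replicates 5 to 8. The call was lost without any 1 of 5 samples (limma adjusted p of 0.0503 to 0.054) and in replicates 1 to 4 alone (limma adjusted p = 0.0764). *Brca1* and *Brca2*, tumour suppressors needed for this route, had log2 fold changes of -0.19 (limma adjusted p = 0.529) and -0.27 (limma adjusted p = 0.171). Their partners *Bard1* and *Palb2* stood at -0.28 and -0.16.

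The largest negative value of the whole set was that of *Xrcc3*, which acts in strand exchange, at -0.64 (SE 0.238, limma adjusted p = 0.0779). It was a low gene, with 5 to 25 reads per sample, and its mean CPM was 6.44 ± 2.22 without and 3.90 ± 1.14 with the *Dbx2* transgene (SD, n = 8 each). Its values overlapped in replicates 1 to 4, where the log2 fold change was -0.26, and lay apart in replicates 5 to 8, where it was -1.01. The further strand exchange genes were at -0.32 for *Xrcc2*, -0.10 for *Rad51c* and 0.20 for *Rad51d*. The genes of the DNA translocases of this route, *Rad54l* and *Rad54b*, were at -0.47 and -0.36. None of these passed the test.

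The 5 genes of end processing encode proteins that help to prepare a broken end for recombination, and 2 of them, *Blm* and *Nbn*, were downregulated. *Blm*, the RecQ helicase that is lost in Bloom syndrome, had the smallest adjusted p of the 43 genes. It ranged from 20.95 to 41.12 CPM in *GFP*-NSPCs (median 33.2) and from 16.37 to 25.19 CPM in *Dbx2*-NSPCs (median 22.6). A single *GFP*-NSPC sample, replicate 1, reached into the range of *Dbx2*-NSPCs, and *Blm* was lower in *Dbx2*-NSPCs at all 8 replicate numbers. The log2 fold change was -0.60 (SE 0.146, limma adjusted p = 0.00791), a level 34.1% lower. It was -0.50 in replicates 1 to 4, where the call was lost (limma adjusted p = 0.156), and -0.70 in replicates 5 to 8.

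*Nbn* encodes the NBS1 subunit of the MRN complex, which binds broken ends and recruits ATM. It ranged from 37.57 to 57.14 CPM in *GFP*-NSPCs (median 46.0) and from 32.93 to 42.33 CPM in *Dbx2*-NSPCs (median 36.1). The ranges overlapped, and *Nbn* was lower in *Dbx2*-NSPCs at 7 of 8 numbers. The log2 fold change was -0.29 (SE 0.098, limma adjusted p = 0.0468), and this call was lost without any 1 of 10 of the 16 samples, with adjusted p-values of up to 0.0965. For the other subunits of the complex the intervals spanned 0. *Rad50* had means of 136 ± 23.6 and 135 ± 18.9 CPM (SD, n = 8 each) and a 95% interval of the log2 fold change from -0.24 to 0.23, and *Mre11a* had an interval from -0.26 to 0.29. The nuclease gene *Exo1* was at -0.17 (limma adjusted p = 0.621).

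In checkpoint signalling 2 of 6 genes were called, both of the ATR branch. *Atr*, the kinase that responds to single-stranded DNA at stalled forks, and *Chek1*, its downstream kinase, were both downregulated. *Atr* ranged from 17.08 to 21.18 CPM in *GFP*-NSPCs (median 17.9) and from 11.74 to 17.58 CPM in *Dbx2*-NSPCs (median 13.4). The groups overlapped by a narrow margin through *Dbx2*-NSPC replicate 3, and *Atr* was lower at all 8 numbers. Its log2 fold change was -0.37 (SE 0.119, limma adjusted p = 0.0427), a call that was lost without any 1 of 12 of the 16 samples, with adjusted p-values of up to 0.0832.

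*Chek1* ranged from 21.52 to 33.04 CPM in *GFP*-NSPCs (median 27.7) and from 13.02 to 27.69 CPM in *Dbx2*-NSPCs (median 19.2). Apart from *Dbx2*-NSPC replicate 8, at 27.69 CPM, all *Dbx2*-NSPC samples lay below all *GFP*-NSPC samples. The log2 fold change was -0.54 (SE 0.150, limma adjusted p = 0.0184), and it was -0.60 in replicates 1 to 4 and -0.48 in replicates 5 to 8, where the call was lost (limma adjusted p = 0.132). *Topbp1*, the activator of ATR, and *Clspn*, the adaptor that brings CHK1 to ATR, were at -0.19 and -0.15 and did not pass the test (limma adjusted p = 0.214 and 0.360).

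In the other branch, *Atm* ranged from 61.64 to 94.78 CPM in *GFP*-NSPCs and from 61.97 to 101.90 CPM in *Dbx2*-NSPCs, with a 95% interval of the log2 fold change from -0.25 to 0.23. *Chek2*, the kinase below ATM, ranged from 17.32 to 32.51 and from 20.23 to 39.84 CPM, a log2 fold change of 0.22 (SE 0.167, limma adjusted p = 0.400). *Chek2* was higher in *Dbx2*-NSPCs at 7 of 8 replicate numbers, although the groups overlapped widely. To compare partners within a sample, the difference of their log2 values was taken for 5 pairs of genes, which were picked after their values had been seen. Because of that choice the exact permutation tests run on them support nothing, and the differences are given as a description. *Chek1* less *Chek2* averaged 0.21 ± 0.494 over the control samples and -0.55 ± 0.471 over the *Dbx2*-NSPC samples (SD, n = 8 each), a difference of -0.77 on the log2 scale that was negative at 8 of 8 numbers. Between the groups, *Nbn* less *Mre11a* differed by -0.31, *Atr* less *Atm* by -0.36, *Nbn* less *Rad50* by -0.29 and *Blm* less *Exo1* by -0.43. In that order, the differences were negative at 6, 6, 7 and 6 of 8 numbers.

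**Figure D2:**
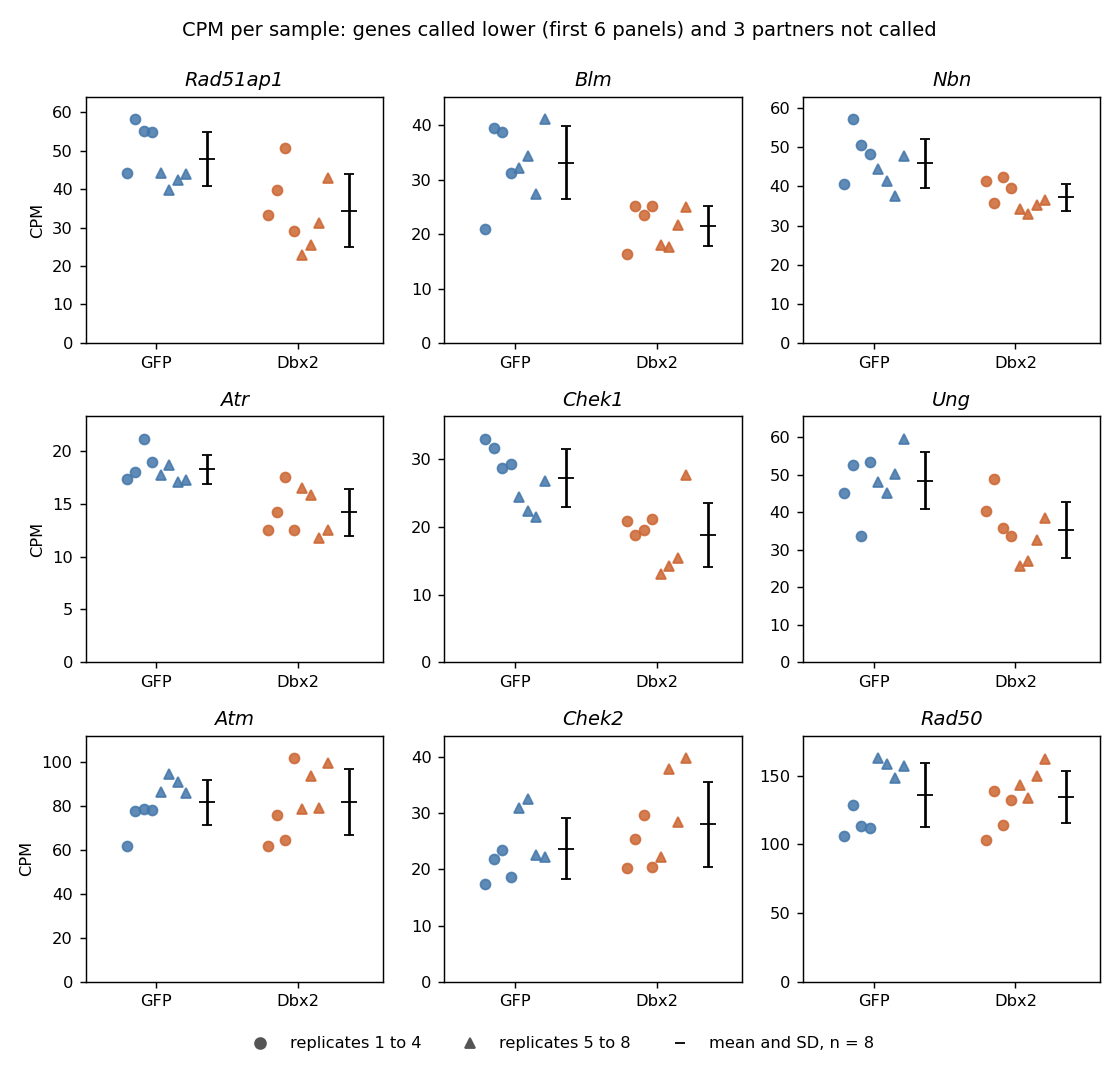
CPM of each sample (y axes, from 0) for the 6 repair genes that were downregulated and for *Atm*, *Chek2* and *Rad50*, in *GFP*-NSPCs (blue) and *Dbx2*-NSPCs (orange), with circles for replicates 1 to 4, triangles for replicates 5 to 8 and black marks for the mean and SD (n = 8). In *Chek1* a single *Dbx2*-NSPC triangle, at 27.69 CPM, stands among the *GFP*-NSPC values, while *Atm* and *Rad50* cover the same range in both groups.

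Base excision and single-strand break repair had 6 genes and 1 call. *Ung* encodes the uracil-DNA glycosylase that removes uracil from DNA. It ranged from 33.56 to 59.63 CPM in *GFP*-NSPCs (median 49.2) and from 25.69 to 48.86 CPM in *Dbx2*-NSPCs (median 34.8), with overlapping groups and a lower value in *Dbx2*-NSPCs at 7 of 8 numbers. The log2 fold change was -0.46 (SE 0.135, limma adjusted p = 0.0250). It was -0.21 in replicates 1 to 4 and -0.72 in replicates 5 to 8, a difference that did not pass the test of the interaction (limma adjusted p = 0.198). The call was lost without any 1 of 3 samples (limma adjusted p of 0.0504 to 0.0528) and in replicates 1 to 4 alone (limma adjusted p = 0.481). The genes for the enzymes that act after the glycosylase were at -0.20 for *Apex1*, the endonuclease that cuts the strand, at 0.14 for *Polb*, the polymerase that fills the gap, and at 0.02 for *Xrcc1*, the scaffold of the repair complex. The strand break sensors *Parp1* and *Parp2* were at -0.09 and -0.19.

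The remaining routes had 0 calls. Among the 3 end joining genes, the Ku subunits were at 0.37 for *Xrcc5* (limma adjusted p = 0.172) and -0.26 for *Xrcc6* (limma adjusted p = 0.332), and *Prkdc*, the kinase that joins them, was at 0.02. Of the 7 genes of the Fanconi anaemia pathway 6 were negative, from -0.59 for *Fancb* to 0.02 for *Fanca*, with the core complex genes *Fancc* at -0.24 and *Fancl* at -0.49, the paired targets *Fancd2* at -0.19 and *Fanci* at -0.13, and the translocase gene *Fancm* at -0.18. *Fancb* was barely detected, at 1 to 19 reads per sample. In mismatch repair, *Pms2*, a subunit of the MutLα endonuclease, was at -0.44 (limma adjusted p = 0.0824) and *Msh6*, a subunit of the mismatch sensor, at -0.13. The genes that mark chromatin around a break or act there were at 0.04 for *Trp53bp1*, -0.15 for *Mdc1* and -0.22 for the ubiquitin ligase gene *Rad18*. Some genes of the set share part of their locus with another expressed gene, among them *Xrcc3*, which overlaps *Klc1* on the opposite strand, and *Fancl*, which overlaps *Vrk2*. *Mre11a* and *Apex1* are also among them, but none of the 6 genes called is. The counting strand is not known here, so values of genes with such an overlap may include reads of the other gene. *Rad54b* overlaps *Fsbp* (mean 7.01 CPM) on the same strand, so the counting strand would not separate these genes.

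The fold changes were also computed separately in the samples numbered 1 to 4 and 5 to 8, a division taken from earlier results of these data. By the chi-square between read counts, the closest sample of the same group was one of the same set for all 16 samples. The division was not complete, since *Dbx2*-NSPC replicates 1 and 4 differed by 17.93 per degree of freedom, more than replicate 1 differed from replicates 5 to 8 (11.75 to 14.47). The 2 sets share no sample. Of the 43 genes, 29 (67.4%) had the same sign in both sets and 27 (62.8%) were negative in both, against 62.3% and 33.7% of all tested genes. *Chek1* was the only repair gene called in replicates 1 to 4 alone, where 7.37% of all tested genes were called lower. In replicates 5 to 8 alone 6 were called lower, namely *Rad51ap1*, *Xrcc3*, *Blm*, *Fancl*, *Fancm* and *Ung*, where 11.7% of all tested genes were. *Fancl*, the ubiquitin ligase of the Fanconi core complex, was at 0.05 in the first set and -1.04 in the second, and *Fancm* was at 0.20 and -0.55. *Fanci* went the other way, at -0.76 and 0.50. A test of the interaction between the transgene and the set called 0 of the 43 genes by limma and 0 by edgeR, with 5 genes at an unadjusted p under 0.05 by limma, against 9.44% of all tested genes called and 21.6% at an unadjusted p under 0.05. The smallest interaction p-value of the set was that of *Fancl* (limma adjusted p = 0.0751).

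**Figure D3:**
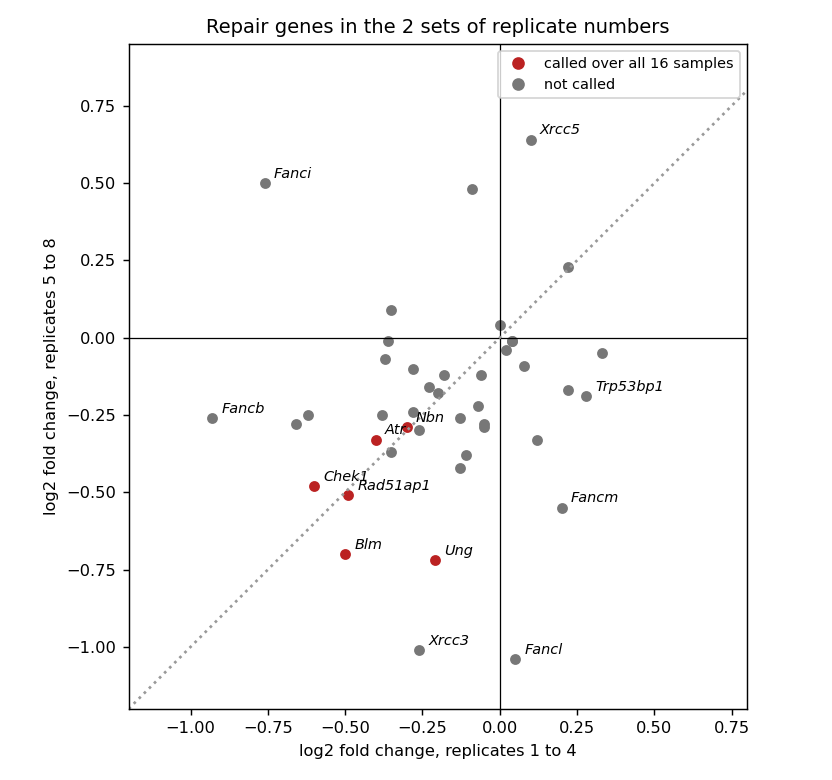
Log2 fold change of each of the 43 repair genes between 4 *Dbx2*-NSPC and 4 *GFP*-NSPC samples in replicates 1 to 4 (x axis) and in replicates 5 to 8 (y axis), with the dotted line marking equal values. The 6 genes called over all 16 samples (red) are negative in both sets, whereas *Fancl* is at 0.05 and -1.04 and *Fanci* at -0.76 and 0.50.

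As a summary per sample, the mean log2(CPM + 0.5) of the 43 genes less that of all tested genes was taken as a score. In *GFP*-NSPCs it ran from 0.062 to 0.454 with a mean of 0.317 ± 0.122, and in *Dbx2*-NSPCs from -0.126 to 0.366 with a mean of 0.10 ± 0.160 (SD, n = 8 each). The groups overlapped, but the score was lower in *Dbx2*-NSPCs at 8 of 8 replicate numbers, with a mean difference of -0.216. The mean difference was -0.198 in replicates 1 to 4 and -0.235 in replicates 5 to 8. *GFP*-NSPC replicate 1 had the lowest score of its group and *Dbx2*-NSPC replicate 8 the highest of its own, and without both the difference was -0.291. Without these samples, which were left out after their values had been seen, 8 repair genes were called lower, beside 8.84% of all tested genes. Among them were 4 of the 6 (*Rad51ap1*, *Blm*, *Chek1* and *Ung*), while *Nbn* and *Atr* missed the threshold (limma adjusted p = 0.0525 and 0.0739). The 37 genes that were not called had a difference of -0.174. By route it was -0.300 for homologous recombination, -0.276 for the Fanconi anaemia pathway, -0.229 for end processing, -0.190 for checkpoint signalling, -0.148 for base excision and single-strand break repair, -0.300 for mismatch repair, -0.127 for the chromatin response and 0.025 for end joining.

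Of 22 proliferation markers 6 were downregulated (*Mcm4*, *Mcm7*, *Ccna2*, *Ccnb1*, *Aurkb* and *Bub1*) and 0 were upregulated, with a median log2 fold change of -0.26 and 20 negative values. Summed over the list, *GFP*-NSPCs gave 4190 ± 508 CPM (2977 to 4535) and *Dbx2*-NSPCs 3600 ± 715 CPM (2793 to 5205; SD, n = 8 each), with *Top2a* the most abundant gene. *Mki67*, *Top2a* and *Pcna* were at -0.13, -0.23 and -0.11 and did not pass the test, nor did *Cdk1*, the kinase that drives mitosis, at -0.62 (limma adjusted p = 0.0509), which passed with the replicate number as a block (limma adjusted p = 0.0165). On the score used for the repair genes, the control samples averaged 2.402 ± 0.162 for the markers and the *Dbx2*-NSPC samples 2.081 ± 0.241 (SD, n = 8 each). *GFP*-NSPC replicate 1 was again the lowest of its group and *Dbx2*-NSPC replicate 8 the highest of its own. The part of proliferation in the repair gene values was not tested.

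**Figure D4:**
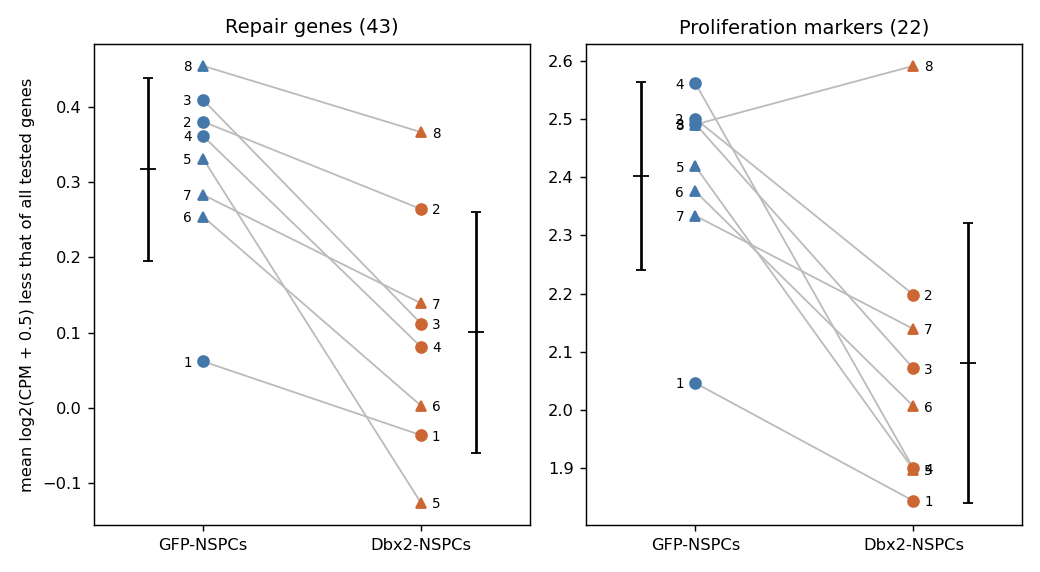
Score of each sample (y axes, mean log2(CPM + 0.5) of the genes less that of all tested genes; the axes do not start at 0) for the 43 repair genes and for 22 proliferation markers, with grey lines joining samples of the same replicate number, shown beside each point, and black marks for the mean and SD (n = 8). The repair score falls along all 8 lines, and the marker score along 7, rising for number 8.

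Markers of cell types also differed between the groups. Of 8 neural progenitor markers 4 were lower in *Dbx2*-NSPCs (*Fabp7* at -0.72, *Pax6* at -0.74, *Msi1* and *Egfr*), whereas *Sox9* was at 0.39 and *Vim* at 0.04, and the list summed to 5680 ± 311 and 5090 ± 556 CPM. Blocked by replicate number, *Sox9* was called higher (limma adjusted p = 0.00129) and *Sox2* lower (limma adjusted p = 5.08e-04). Of the 6 astrocyte markers 5 were tested and 2 were higher, *Gfap* at 3.31 and *Aldoc* at 1.42, whereas *Gjb6* was at 0 CPM. The other tested ones, *S100b* at -0.28, *Aqp4* at 0.61 and *Slc1a2* at 0.44, were not called. *Slc1a2* was at -0.31 in replicates 1 to 4 and at 1.19 in replicates 5 to 8. The astrocyte markers summed to 429 ± 203 CPM (241.4 to 765.5) in the controls and to 822 ± 86.7 CPM (687.5 to 935.6) under *Dbx2*, with *Aldoc* the most abundant. Of 7 neuroblast and neuron markers *Map2* alone was called, as lower. The list summed to 1080 ± 197 and 779 ± 75.8 CPM (SD, n = 8 each for all sums), of which *Map2* made up 1050 and 751 CPM. Among the 4 oligodendrocyte lineage markers tested 0 were called by limma, and of the 3 ependymal markers tested *Ccdc153* was higher. Their part in the repair gene values was not tested.

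The rest of the repair machinery was described with 102 further genes, listed by pathway, of which 98 were tested. Of these, 8 (8.16%) were lower and 3 were higher in *Dbx2*-NSPCs, beside 7.78% and 8.03% of all tested genes. Their median log2 fold change was -0.08 and 64.3% were negative. *Timeless*, which with *Tipin* protects the replication fork and supports the ATR signal, fell from 91.0 ± 19.3 to 45.2 ± 9.31 CPM, with n = 8 for each SD and a log2 fold change of -1.0 (SE 0.146, limma adjusted p = 9.6e-05). *Tdg*, a glycosylase of base excision repair that also takes part in DNA demethylation, was at -0.93 (limma adjusted p = 0.00153). *Rev3l*, the catalytic subunit of the translesion polymerase zeta, was at -0.87 (limma adjusted p = 0.00192), and *Fen1*, the flap endonuclease, at -0.55 (limma adjusted p = 0.0206). The other genes called lower were *Dna2*, *Neil3*, *Lig3* and *Tipin*.

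Of the further genes 3 were higher. *Parp3*, a poly(ADP-ribose) polymerase family member that acts at strand breaks, rose from 14.1 ± 4.96 to 31.8 ± 5.34 CPM, with n = 8 for each SD and a log2 fold change of 1.22 (SE 0.221, limma adjusted p = 7.46e-04), and its groups did not overlap. *Polk*, a translesion polymerase, was at 0.86 (limma adjusted p = 0.00839) and *Ercc5*, the nuclease of nucleotide excision repair that is known as XPG, at 0.53 (limma adjusted p = 0.0389). By pathway, 4 of 15 further base excision genes were lower and 1 was higher. Of 9 further checkpoint genes 2 were lower, of 16 further genes of homologous recombination 1 was lower, and of 16 genes of nucleotide excision repair 0 were lower and 1 was higher.

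**Figure D5:**
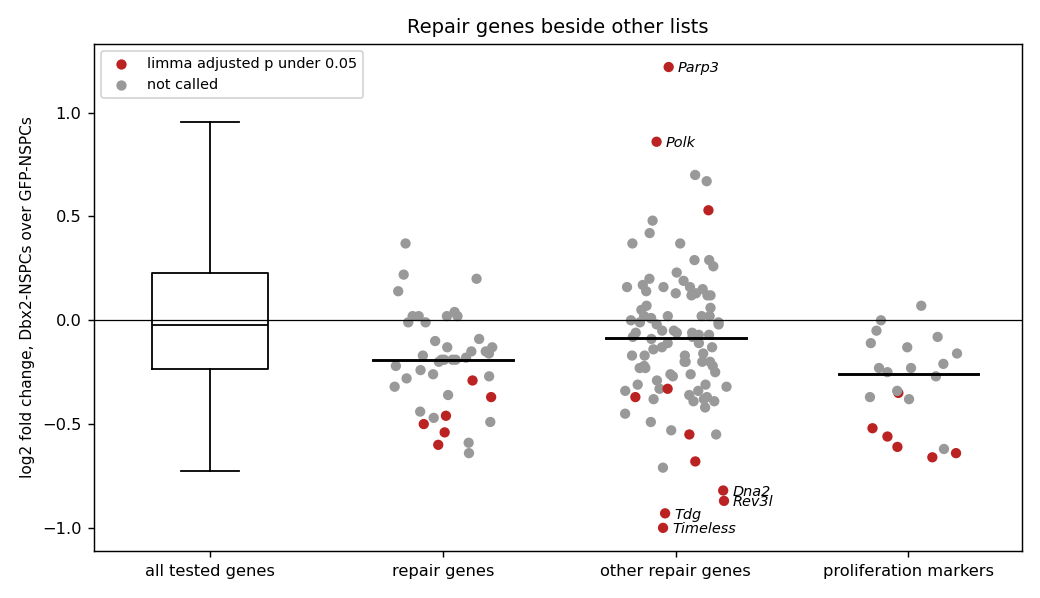
Log2 fold change in *Dbx2*-NSPCs over *GFP*-NSPCs (y axis) for the 43 repair genes, 98 other repair genes and 22 proliferation markers (points, red where called, with a bar at the median), beside a box of all 12533 tested genes (median, quartiles, and whiskers at the 5th and 95th percentiles). The medians are -0.19, -0.08, -0.26 and -0.02, and of the 3 lists only the other repair genes hold calls above 0.

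The promoters were searched for the letters of 3 motifs known from cell cycle genes. RefSeq gives a promoter of 250 bases before and 50 after the gene start for 34 of the 43 genes (build GRCm38.p6). Letters bound by E2F factors (TTTCCCGC, TTTCGCGC, TTTGCCGC or TTTGGCGC, on either strand) were found in 9 of 34 promoters (26.5%), against 2.60% of all 27025 genes with a promoter and 4.80% of the 9631 of them that were tested. The 9 genes had log2 fold changes from -0.28 to 0.22, and none of the 5 called genes with a promoter was among them. The CCAAT box of NF-Y, on either strand, was in 21 of 34 (61.8%, against 41.1% of all genes and 43.5% of those tested), with *Rad51ap1* and *Blm* among the called ones. The letters of the CHR element (TTTGAA or TTTAAA) were in 2 of 34 (5.88%, against 30.6% of all genes and 22.1% of those tested). A match of letters is a description and no sign of binding. The stretches below show 1 of the 2 CCAAT matches in each of the called genes *Rad51ap1* and *Blm*, then the E2F letters of 4 genes that were not called. Each is 50 bases of the strand of the gene, 5′ to 3′, with the matched letters or their reverse complement in capitals. They lie at chr6:126939597-126939646 (minus strand), chr7:80535133-80535182 (minus strand), chr5:150522432-150522481 (plus strand), chr1:71103153-71103202 (minus strand), chr5:110839810-110839859 (plus strand) and chr17:35841448-35841497 (plus strand), in the order printed.
Rad51ap1: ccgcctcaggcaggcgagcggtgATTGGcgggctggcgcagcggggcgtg
Blm: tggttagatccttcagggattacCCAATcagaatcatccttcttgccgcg
Brca2: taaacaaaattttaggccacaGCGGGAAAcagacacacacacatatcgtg
Bard1: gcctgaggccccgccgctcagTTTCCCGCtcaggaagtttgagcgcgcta
Chek2: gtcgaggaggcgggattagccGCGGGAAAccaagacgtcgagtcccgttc
Mdc1: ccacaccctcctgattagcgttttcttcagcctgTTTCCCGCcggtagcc
Counted from the gene start in RefSeq, the printed match begins 36 bases before it in *Rad51ap1* and 161 bases before it in *Blm*, whose RefSeq start lies inside the gene as GENCODE draws it. The 4 genes with E2F letters had log2 fold changes of -0.27, -0.28, 0.22 and -0.15, and none of them passed the test.

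The called genes lay on chromosomes 4 (*Nbn*, 15957925 to 15992589), 5 (*Ung*, 114130386 to 114139323), 6 (*Rad51ap1*, 126923050 to 126939587), 7 (*Blm*, 80454733 to 80535119) and 9 (*Atr*, 95857597 to 95951781, and *Chek1*, 36708482 to 36727065) of GRCm38. To see how far a value was shared by its surroundings, each gene was set against the median log2 fold change of its 50 nearest tested neighbours. That median was -0.02 around *Rad51ap1*, -0.04 around *Blm*, -0.03 around *Atr*, 0.05 around *Chek1* and -0.01 around *Ung*. Around *Nbn* it was -0.16, and *Nbn* less its neighbours was at -0.13 instead of -0.29.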

How the data were processed

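RNA from 16 samples (8 per transgene, 100 ng each, QuantSeq 3′ libraries) had been sequenced in single-end reads of 101 bp. After trimming with bbduk, the authors mapped the reads to GRCm38 by STAR 2.5.0a, with Ensembl annotation, and deposited CPM for 30386 genes (FastQC 0.11.8 and edgeR 3.36 per the submitters' processing notes); the counting strand is not given in the sources used here. Of the values above 0, 99.9991% were whole reads within 0.1 read, and 12637 genes were at 0 throughout. Columns not used numbered 0. Reads carry no molecular identifiers, so depth covers counting error only. Replicates of a group differed by more than sampling noise (chi-square per degree of freedom of at least 2.36).

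limma 3.58.1 (R 4.3.3, eBayes with trend) was run on log2(CPM + 0.5) without covariate, since the labels do not give the line, and a fold change on this scale understates that of low genes. The members and lists were chosen with earlier results of these data known. Named were all members called, of the other repair genes past the threshold the 4 with the smallest adjusted p in each direction (only 3 were higher), and *Mki67*, *Top2a*, *Pcna* and *Cdk1*; further names were added after their values were seen. Alternatives were other pseudocounts, filters and scalings, eBayes without trend, the replicate block, the number sets as covariate or alone, leaving out samples, and count tests of the recovered reads by DESeq2 1.42.0 and edgeR 4.0.16. The replicate numbers come from the labels. Deviations of same-numbered samples correlated at 0.152 to 0.303 (mean 0.226), against 0.199 for differently numbered samples of the same number set, and at 0.040 within the sets. On simulated data for the transgene comparison (12533 genes, 200 changed by 1 on the log2 scale), 151 changed genes and 4 false ones were called by limma, 153 and 6 by edgeR, and 146 and 7 by DESeq2. Positions came from GENCODE M21. Tables were handled in Python 3.11.15.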

Additional observations from a re-analysis of the deposited data

Results flagged for a closer look

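In 104 groups of 8 values, 8 had a sample far from the other 7 by Dixon's test, where chance gives about 1 in 20 groups. In *Dbx2*-NSPC replicate 8, *Fanca* was at 17.89 CPM (the other 7 samples 7.77 to 12.05), *Fancb* at 3.71 CPM (0.36 to 1.86), *Fanci* at 19.92 CPM (3.95 to 11.23) and *Topbp1* at 111.76 CPM (73.2 to 82.25), each the highest of its group. In *GFP*-NSPC replicate 1, *Parp1* was the lowest of its group at 100.72 CPM (the others 138.94 to 161.8), as were the score of end processing at 0.640 (1.008 to 1.239) and that of base excision and single-strand break repair at 1.126 (1.346 to 1.534). *Atr* was highest in *GFP*-NSPC replicate 3, at 21.18 CPM (17.08 to 18.99).

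Outside the 43 genes, the log2 fold change differed between the sets of replicate numbers for 10 of the genes listed or checked (interaction term of limma, adjusted p under 0.05). The genes listed included 98 other repair genes that were tested and 22 proliferation markers, and 9.44% of all tested genes passed the same test. In replicates 5 to 8 less replicates 1 to 4, the difference was 1.45 for *Dbx2* (adjusted p = 1.04e-04). Of the other repair genes it was -6.98 for *Mgmt* (4.19 in replicates 1 to 4 and -2.79 in replicates 5 to 8), -1.85 for *Mad2l2* (0.54 and -1.31) and -0.60 for *Rev3l* (-0.57 and -1.17). Of the markers it was 1.4 for *Ccnb2*, -0.68 for *Nes*, 1.19 for *Aldoc*, 1.5 for *Slc1a2*, 5.89 for *Dcx* and 4.86 for *Rbfox3*. The fold changes of *Mgmt*, *Mad2l2*, *Ccnb2*, *Nes*, *Slc1a2*, *Dcx* and *Rbfox3* differed in sign between the sets. Some of these genes reached 0 CPM. *Dcx* ran from 0 to 6.84 CPM in *GFP*-NSPCs and to 5.42 CPM in *Dbx2*-NSPCs, and *Mgmt* from 0 to 4.43 and to 33.54 CPM.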

How the results depend on the processing

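*Blm* and *Chek1* were called without each of the 16 samples in turn and under the 12 alternatives over all samples. *Rad51ap1* and *Ung* were called under the same 12 alternatives, but *Rad51ap1* missed the threshold without 5 single samples (limma adjusted p of 0.0503 to 0.054) and *Ung* without 3. *Nbn* and *Atr* were lost by edgeR (adjusted p = 0.0713 and 0.0555), by DESeq2, without a filter on low values and under median-of-ratios scaling, and *Nbn* also under quantile normalization, while edgeR with the number set as a covariate called both (adjusted p = 0.0273 and 0.0491). The number of repair genes called lower was 4 to 7 under these alternatives and 3 to 7 without single samples, and 0 were called higher in any. The background moved too, with 826 to 1533 of all genes called lower under the same alternatives and 816 to 1128 without single samples. The value of 826 came from the filter of a mean of at least 10 CPM, which left 35 of the 43 genes. The replicate block changed no call of the 43 genes. Of the other genes named in the report it changed the calls of *Cdk1*, *Sox2*, *Sox9* and *Foxj1*, an ependymal marker called higher with it (limma adjusted p = 0.0307). With the block 11 other repair genes and 8 proliferation markers were called lower, beside 10.9% of all tested genes. *Xrcc3* was added with the number set as a covariate, under quantile normalization and without *GFP*-NSPC replicate 1. In replicates 1 to 4 alone 1 repair gene was lower, and *Dbx2* was at 0.54 (limma adjusted p = 0.0891). Other repair genes called lower were 5 under median-of-ratios scaling and 14 in replicates 5 to 8 alone. Proliferation markers called lower were 3 in replicates 5 to 8 alone and 11 without *GFP*-NSPC replicate 1 and *Dbx2*-NSPC replicate 8. Of all genes, 1533 were lower with the number set as a covariate and 1467 in replicates 5 to 8 alone, and 1572 were higher by edgeR with that covariate. The causes were not tested. Genes under 10 CPM in both groups (*Bard1*, *Palb2*, *Rad51c*, *Xrcc3* and *Fancb*) rest on few reads at this depth.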
